A study of Homo sapiens with 6 samples.

Results

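The nuclei described here carried RNA of PAX3 or PAX7 together with brain-type long non-coding RNAs, and were taken from teratomas of the human embryonic stem cell line H1. A human nucleus was a member when it held at least 1 UMI (unique molecular identifier, the count of a captured RNA molecule) of PAX3 or PAX7. It also had to hold at least 1 UMI of MIR219A2HG, MIR9-3HG or PANTR1, and 0 UMIs of SOX10. Of 54030 human nuclei, 3427 (6.34%) met this rule. These genes chose the nuclei, so their levels below are a description, and no test of them is given as a result.

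The study grew teratomas, tumours that hold many tissues, by injecting H1 cells mixed with matrigel into the flank of immunodeficient NSG mice. The cells were wild type (WT), knockout (KO) for the long non-coding RNA LNCPRESS1, or a ΔATG (DATG) line of the same gene, a change for which the labels give no details. Tumours were flash frozen, and droplet libraries were made from their nuclei, 2 per group. Nothing in the labels tells if libraries of 1 group are of different tumours or clones. The p-values therefore measure only the spread between these samples, which may be technical. All 3 groups shared the H1 line and the mouse host.

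PAX3 and PAX7 are paired-box transcription factors that mark the dorsal side of the embryonic neural tube, where progenitors later give rise to sensory interneurons, roof plate and neural crest. Both genes are also used by muscle precursors of the somite, and PAX3 by neural crest. SOX10, a factor of neural crest, Schwann cells and melanocytes, was therefore used with the aim of keeping crest out. The 3 long RNAs point to neural tissue: MIR9-3HG and MIR219A2HG are host transcripts of microRNAs of the nervous system, and PANTR1 is transcribed beside the neural gene POU3F3.

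The microRNAs inside the host RNAs are shown because they tie the rule to neural development. miR-9 acts in neural progenitors and neurons, and miR-219 in the oligodendrocyte lineage. The mature sequences are from RefSeq (GRCh38.p14), written 5′ to 3′, with the seed (bases 2 to 8) in capitals. The deposited counts are of the host RNA, and say nothing of the level of the mature microRNA.
hsa-miR-219a-5p: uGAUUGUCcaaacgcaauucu
hsa-miR-219a-2-3p: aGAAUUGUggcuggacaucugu
hsa-miR-9-5p: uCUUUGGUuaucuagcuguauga
hsa-miR-9-3p: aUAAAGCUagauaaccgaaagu
The 4 seeds differ from each other. In the RefSeq table of 2370 mature human names, the seed of hsa-miR-219a-5p was carried by 3 names and each of the other seeds by 1. Both miR-219a arms lie on the minus strand of chromosome 9 (128392632 to 128392653 and 128392676 to 128392696), inside MIR219A2HG, a long intergenic RNA at 128392007 to 128393510. Both miR-9 arms lie on the plus strand of chromosome 15 (89368032 to 89368054 and 89368071 to 89368092), inside MIR9-3HG at 89361579 to 89398487. PANTR1 lies on the minus strand of chromosome 2 (104807572 to 104853183), as does PAX3 (222199888 to 222298996). PAX7 lies on the plus strand of chromosome 1 (18631006 to 18748866). Gene positions are those of GENCODE 29 on GRCh38.

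The libraries held 35785812 to 47574535 UMIs in 6504 to 13489 barcodes. UMIs summed over the member nuclei ranged from 896413 in DATG replicate 2 to 8498374 in KO replicate 1. The 2 DATG libraries stood apart from each other: across genes, the log2 levels in member nuclei correlated at 0.787 between them, while the 2 WT libraries correlated at 0.944 and the 2 KO libraries at 0.972. Of 53707 distinct barcodes of human nuclei, 322 (0.600%) occurred in more than 1 library. LNCPRESS1 itself had 9 and 3 UMIs over all human nuclei of the WT libraries, 3 and 0 in KO, beside 1 and 3 in DATG, and 0 in the member nuclei of every library. These counts were too few to check the labels.

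The member nuclei were found in every library. In WT they made up 8.19% (replicate 1) and 2.47% (replicate 2) of human nuclei. In KO the shares were 12.4% and 7.0%, and in DATG 5.60% and 2.99%. The KO libraries lay above WT replicate 2 and both DATG libraries, but KO replicate 2 lay below WT replicate 1. The means were 5.33% ± 4.04 in WT, 9.71% ± 3.83 in KO and 4.30% ± 1.85 in DATG (SD, n = 2). An exact two-sided permutation test over libraries gave p = 0.667 for KO against WT, p = 1 for DATG against WT and p = 0.333 for DATG against KO. The smallest value such a test of 2 against 2 libraries allows is 0.333. The log2 ratio of KO to WT was 0.86, but it was 0.25 without WT replicate 2, 0.39 without KO replicate 1 and 1.97 without WT replicate 1.

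**Figure D1:**
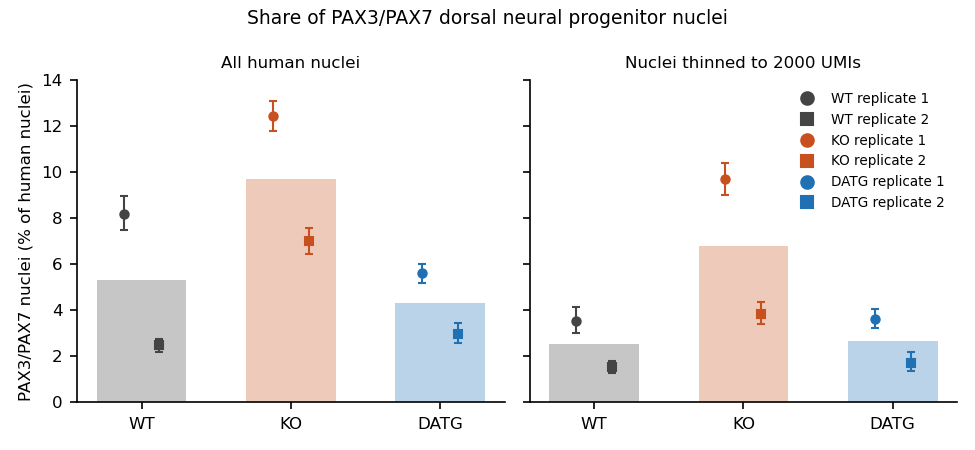
Share of PAX3/PAX7 nuclei among human nuclei (percent, axes from 0) in each library, as deposited (left) and thinned to 2000 UMIs, without nuclei of fewer UMIs (right). Points are libraries with exact 95% binomial intervals, which cover counting error only, and bars are the means of 2 libraries. In both panels KO replicate 1 is highest, at 12.4% and 9.69%.

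The rule needs molecules of 2 kinds, so deeper nuclei met it more often. Member nuclei had a median of 5270 UMIs and other human nuclei 2844. To compare at equal depth, nuclei were thinned to 2000 UMIs and those with fewer were left out. This kept 4312 and 8151 nuclei in WT, 6974 and 6640 in KO, with 8175 and 3926 in DATG. The WT shares then were 3.55% and 1.52%, the KO shares 9.69% and 3.86% and the DATG shares 3.61% and 1.73%. Both KO libraries then lay above both WT libraries, with a ratio of means of 2.67 (exact permutation p = 0.333). KO and DATG did not overlap with or without thinning. DATG and WT overlapped in both. Of the members, 530 (15.5%) were called doublets, against 7.32% of the other human nuclei.

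Most members owed their place to PAX3. It was detected in 3156 members (92.1%) and PAX7 in 1129 (32.9%). PANTR1 was present in 79.6%, MIR9-3HG in 53.0% and MIR219A2HG in 41.7%. Only 17.7% held all 3 long RNAs, 39.0% held 2 and 43.4% held 1. At the edge of the rule, 924 members (27.0%) had exactly 1 UMI of PAX3 and PAX7 together. Just outside it, 8050 nuclei had a long RNA and no PAX3 or PAX7, and 2743 had PAX3 or PAX7 and no long RNA. A further 347 met both conditions but held SOX10, 275 of them with exactly 1 UMI of it.

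A single UMI can also come from free RNA. Nuclei with at least 3 markers of endothelium, gut or hepatocytes and fewer than 3 neural progenitor markers were taken as nuclei that should lack PAX3 and PAX7. PAX3 or PAX7 was seen in 1.35% of 520 such endothelial nuclei, in 3.61% of 831 gut nuclei and in 3.61% of 1248 hepatocyte nuclei. In WT replicate 1 these shares were 5.77%, 7.87% and 4.62%. KO replicate 1, with 1254 members, held only 13, 5 and 21 such nuclei, and none had PAX3 or PAX7. The limit on progenitor markers keeps most members out of these sets. Among the members themselves, 88 held at least 3 endothelial markers, 136 at least 3 gut markers and 176 at least 3 hepatocyte markers.

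Levels are given as CPM, UMIs per 1000000 human UMIs of the member nuclei of a library. PAX3 stood at 259 and 337 CPM in WT, 567 and 379 in KO, with 488 and 580 in DATG. WT was lowest in both libraries. Over all genes tested, 17.2% were higher in both KO libraries than in both WT libraries, and 10.5% in both DATG libraries. The rule asks for at least 1 UMI of PAX3 or PAX7 per nucleus, which weighs more in shallow nuclei. Members had a median of 8710 UMIs in WT replicate 1, where PAX3 was lowest, and 3940.5 in DATG replicate 2, where it was highest. The part of depth in the levels of the rule genes was not tested. PAX7 was at 81.8 and 44.5 CPM in WT, 71.5 and 65.4 in KO, beside 47.9 and 132 in DATG, so all 3 groups overlapped. PANTR1 was at 190 and 251 CPM in WT, 368 and 288 in KO, with 342 and 327 in DATG. MIR9-3HG was at 53.6 and 120 CPM in WT, 206 and 169 in KO, beside 171 and 77.0 in DATG. MIR219A2HG was at 68.2 and 61.4 CPM in WT, 126 and 77.3 in KO, with 80.5 and 79.2 in DATG.

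Against the label, neural progenitor markers were widespread in the members and dorsal neural tube markers less so. At least 3 of 18 progenitor markers were found in 90.5% of members and in 47.8% of other human nuclei. At least 3 of 20 dorsal neural tube markers were found in 29.7% against 6.36%. Summed over the list, the progenitor markers ranged from 1884 to 2818 CPM in members and from 1051 to 2081 CPM in other nuclei, and were higher in members in every library. The dorsal list ranged from 333 to 737 CPM in members and from 161 to 346 CPM in the others, again higher in members in every library. The summed level of the roof plate and dorsal signal list did not separate them, with means of 970 and 982 CPM. At least 3 of its markers were found in 61.7% of members and 32.9% of the others. All these shares of nuclei are without thinning, and members were deeper. These are descriptions, since the members were chosen from the same counts.

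**Figure D2:**
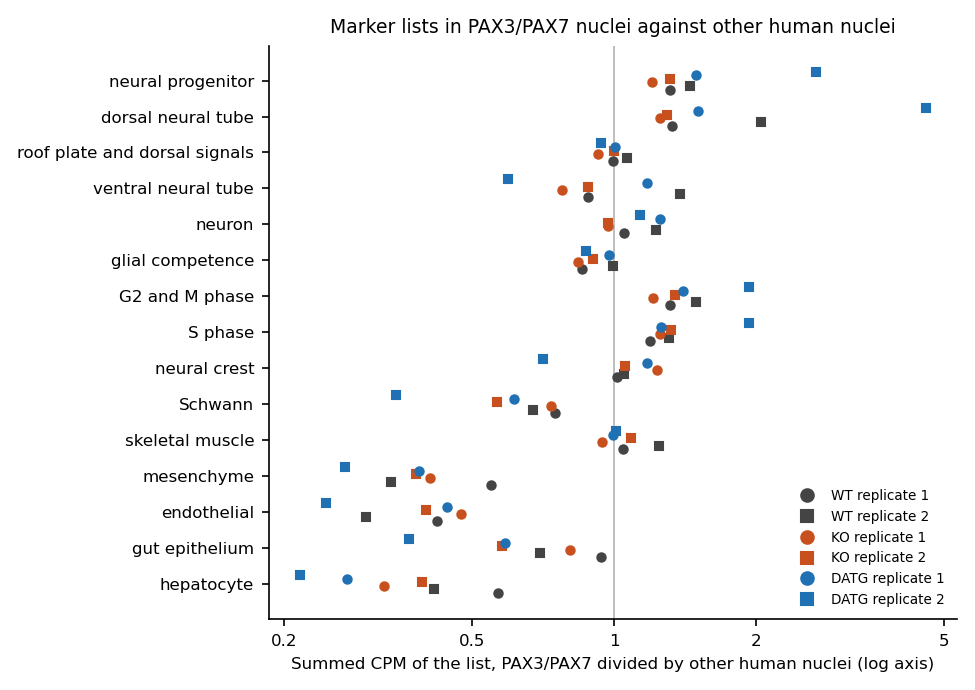
Summed CPM of each marker list in PAX3/PAX7 nuclei divided by that in other human nuclei of the same library (log axis, 1 point per library, the line at 1 marks no difference). Neural progenitor, dorsal neural tube and cell cycle lists lie above 1 in all 6 libraries, and mesenchyme, endothelial, gut and hepatocyte lists lie below 1 in all 6.

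At equal depth such genes were also seen in a larger share of members than of the rest. Thinned shares of single genes, here and below, pool the nuclei of all 6 libraries. KO replicate 1 gave 1254 of the 3427 members and 10096 of the 54030 human nuclei, so the mix of libraries differed between members and others. In nuclei thinned to 2000 UMIs, SOX2, the factor that keeps neural progenitors undifferentiated, was seen in 15.9% of 3070 members and 6.28% of the others. Without thinning the shares were 38.4% and 10.5%. HES5, a NOTCH target of dividing progenitors, was seen in 10.9% of thinned members and 2.41% of the others (25.5% and 4.19% unthinned). ZIC1, a dorsal zinc finger factor, was seen in 25.0% of thinned members and 13.2% of the others (45.7% and 17.1% unthinned). The proliferation gene TOP2A was seen in 19.4% of thinned members and 12.3% of the others (40.3% and 17.3% unthinned). PAX6, a factor of intermediate progenitor domains, differed less, with 7.13% and 4.37% (21.2% and 6.84% unthinned).

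Ratios of the mean level in members to that in other nuclei were also ranked over genes. SMOC1, a secreted matrix protein, was at 131 CPM in members and 33.7 CPM in other nuclei, a ratio of 3.87. PRMT8, a brain arginine methyltransferase, followed at 3.61, then GBX2-AS1 at 3.44 and TAFA4 at 3.27. HES5 had a ratio of 3.27, the neural POU factor POU3F2 3.18, the neurotrophin receptor gene NTRK2 2.59 and SOX2 2.48. Ratios varied between libraries, from 1.88 to 16.4 for SMOC1 and from 2.07 to 30.1 for HES5. PAX7 and PAX3, which the rule fixes, had ratios of 12.8 and 10.1.

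Markers of other cell types were present in the members too. Mesenchyme markers summed to between 790 and 2993 CPM in members, against 1944 to 11140 CPM in other nuclei, and 72.6% of members held at least 3 of 14 mesenchyme markers (85.0% of the others). COL1A1, the fibrillar collagen chain of connective tissue, was seen in 39.2% of thinned members and 65.8% of thinned others (65.5% and 79.0% unthinned). Neuron markers were frequent: 75.6% of members held at least 3 of 18, against 41.7% of the others, while their summed level differed little (means of 3215 and 2965 CPM). Muscle markers summed to 361 to 673 CPM in members and 358 to 676 CPM in the others. At least 3 of 17 muscle markers were held by 14.4% of members and 3.59% of the others. MYOD1, a factor of muscle cell commitment, was seen in 0.065% of thinned members and 0.094% of thinned others (0.117% and 0.162% unthinned). Of members, 7.88% held at least 3 of 13 paraxial mesoderm markers, against 2.93% of the others. Crest markers were present despite the limit on SOX10: 23.6% of members held at least 3 of 14 neural crest markers, against 10.2% of the others. For Schwann cell markers, 15.0% of members held at least 3 of 10, against 6.22%. Shares of nuclei with at least 3 markers are without thinning, and members were deeper. Every gene of these lists had at least 1 UMI in members.

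Among progenitor genes, none of 18 passed the edgeR test between groups. SOX2 was at 51.6 and 74.9 CPM in WT, 81.0 and 75.6 in KO, beside 97.9 and 182 in DATG. It was highest in DATG and lowest in WT, without overlap. Such a lack of overlap was common: it held for 40.5% of all genes between KO and WT, 32% between DATG and WT, and 37.2% between DATG and KO. HES5 was at 13.7 and 37.1 CPM in WT, 81.5 and 57.8 in KO, with 70.6 and 49.1 in DATG, lowest in WT. FABP7, a fatty acid binding protein of radial glia, was at 6.62 and 14.5 CPM in WT, 20.6 and 12.2 in KO, beside 66.8 and 11.2 in DATG, high in a single library. For KO against WT 12 of the 18 lay above 0, with a median log2 fold change of 0.34, beside a median of -0.003 over all genes tested.

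No dorsal neural tube gene passed the edgeR test between groups with all 6 libraries. In a fit of the 4 WT and KO libraries alone, 1 of 17 was called lower in KO than in WT, beside 1.21% of all genes. ZIC1 was at 195 and 210 CPM in WT, 170 and 218 in KO, with 118 and 248 in DATG. The DATG libraries were its lowest and highest. ZIC2 was at 40.4 and 46.2 CPM in WT, 34.2 and 31.7 in KO, beside 25.6 and 133 in DATG, and again the 2 DATG libraries lay at opposite ends. The most dorsal progenitor factors were scarce in every library: OLIG3 stood at 0.881 to 4.46 CPM, and ATOH1 at 0 to 0.705 CPM. LMX1A, the roof plate factor, was at 61.8 and 48.6 CPM in WT, 26.1 and 23.1 in KO, with 31.9 and 47.97 in DATG. The KO libraries lay below the WT libraries (log2 fold change -1.14, SE 0.27), but the edgeR adjusted p was 0.321. It was 0.0333 with those 4 libraries, where LMX1A was the dorsal gene called. Over the 17 dorsal genes tested, 9 lay above 0 for KO against WT, with a median of 0.01.

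Of the secreted signals of the dorsal midline, RSPO2, a ligand that amplifies WNT signalling, had the largest gap between WT and KO. It was at 140 and 104 CPM in WT, 54.2 and 34.9 in KO, beside 60.7 and 83.7 in DATG, with WT above all other libraries (KO against WT log2 -1.43, SE 0.29, edgeR adjusted p 0.251). RSPO3, its relative, was at 64.7 and 45.2 CPM in WT, 56.6 and 51.6 in KO, with 46.2 and 34.6 in DATG, so WT and KO overlapped. WNT3A, a roof plate ligand, was at 29.4 and 13.5 CPM in WT, 12.2 and 8.28 in KO, beside 9.46 and 39.0 in DATG. LEF1, a nuclear effector and target of WNT signalling, was at 138 and 160 CPM in WT, 107 and 144 in KO, with 85.5 and 149 in DATG, overlapping throughout. PTCH1, the Hedgehog receptor, was at 315 and 356 CPM in WT, 318 and 302 in KO, beside 285 and 272 in DATG.

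Over the whole genome no gene passed between groups. Most 2-fold changes could be missed: in simulated data the KO against WT test with 6 libraries recovered 10 of 100. edgeR called 0 of 19399 genes (0%) in each of the 3 comparisons, KO against WT, DATG against WT and DATG against KO, which share libraries. At an unadjusted p under 0.05 there were 1209, 1291 and 901 genes, and DESeq2 called 109, 99 and 46. The biological coefficient of variation was 25.3% with all 6 libraries and 19.0% with the WT and KO libraries alone. Fitted on those 4 libraries alone, edgeR called 298 of 19463 genes for KO against WT (1.53%), 63 higher (0.324%) and 235 lower (1.21%). Leaving out DATG replicate 1 gave 343 calls for KO against WT, and leaving out DATG replicate 2 gave 345. The comparisons with DATG then rest on 1 DATG library without a replicate, and their counts are not given.

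Genes of the head-to-tail axis were read next. HOX genes, clustered homeobox genes whose paralogue number follows position from hindbrain to tail, summed to 130 and 241 CPM in WT members, 724 and 548 in KO, with 654 and 197 in DATG (39 genes). KO replicates 1 and 2 and DATG replicate 1 were high, and both WT libraries and DATG replicate 2 were low. In other human nuclei the sums were 162 and 220 CPM in WT, 443 and 307 in KO, beside 445 and 272 in DATG, with both KO libraries again above both WT libraries. The gap was seen along the whole axis. Paralogue groups 1 to 3 summed to 73.8 and 145 CPM in WT members against 384 and 307 in KO. Groups 9 and 10 summed to 15.7 and 30.03 against 113 and 70.5, and groups 11 to 13 to 4.16 and 4.05 against 25.7 and 23.4.

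**Figure D3:**
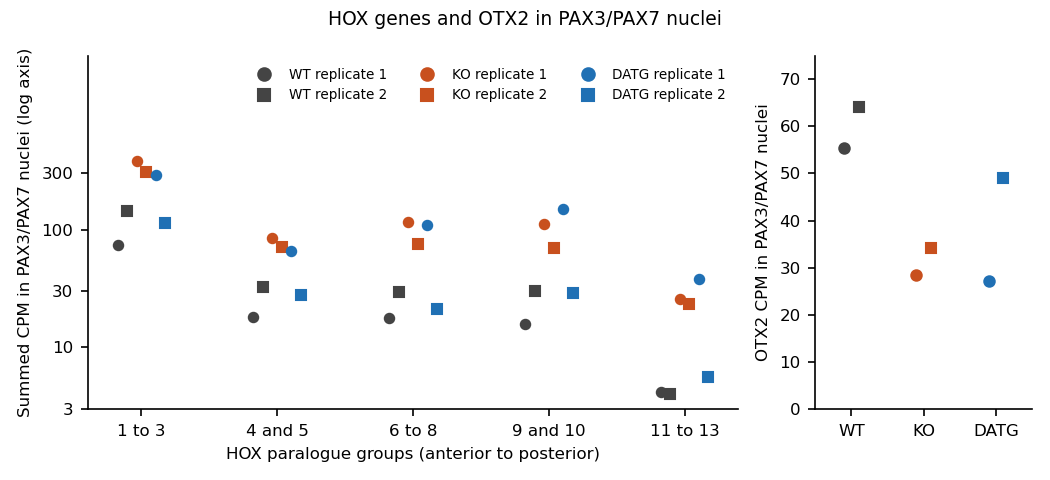
Left, summed CPM of HOX genes in PAX3/PAX7 nuclei by paralogue group, 1 point per library (log axis); right, CPM of OTX2 (axis from 0). In every paralogue group both KO libraries and DATG replicate 1 lie above both WT libraries and DATG replicate 2, and for OTX2 both WT libraries lie highest, at 55.5 and 64.1 CPM.

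In the list of HOX genes of groups 4 to 13 (plus HOXD1), 23 of 32 passed the filter on low counts. All 23 lay above 0 for KO against WT, with a median log2 fold change of 2.004, beside 49.5% of all genes tested. None passed with all 6 libraries. In the fit of the 4 WT and KO libraries 9 of 22 were called higher, beside 0.324% of all genes. HOXD3, outside that list, was at 8.93 and 18.6 CPM in WT, 124 and 73.5 in KO, with 86.2 and 5.58 in DATG. Its KO against WT difference was 2.91 (SE 0.88, edgeR adjusted p 0.527), and 2.95 (SE 0.39, adjusted p 0.0167) with the 4 libraries. HOXC6, of the upper trunk, was at 6.47 and 10.8 CPM in WT, 39.9 and 24.1 in KO, beside 38.5 and 5.58 in DATG. HOXC4 was at 8.93 and 10.5 CPM in WT, 37.2 and 26.1 in KO, with 27.7 and 13.4 in DATG. HOXD11, of the tail end, was at 0.616 and 2.70 CPM in WT, 20.5 and 16.2 in KO, beside 29.6 and 4.46 in DATG. HOXD3, HOXC6 and HOXC4 were chosen for passing with the 4 libraries and for having no overlap of KO and WT. HOXD11 also lay higher in both KO libraries than in both WT libraries, as 17.2% of all genes tested did.

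OTX2, the homeobox gene of forebrain and midbrain, ran the other way. It was at 55.5 and 64.1 CPM in WT, 28.5 and 34.2 in KO, with 27.1 and 49.1 in DATG. The WT libraries were highest (KO against WT log2 -0.90, SE 0.31, edgeR adjusted p 0.624). FGF8, the signal of the midbrain-hindbrain border, was at 11.1 and 7.09 CPM in WT, 1.65 and 1.41 in KO, beside 2.10 and 3.35 in DATG (KO against WT log2 -2.54, SE 0.48, edgeR adjusted p 0.244). With the 4 libraries FGF8 passed (adjusted p 0.0223) and OTX2 did not (0.0909). Per nucleus, any HOX UMI was found in 49.8% and 64.0% of WT members, 82.4% and 76.8% of KO, beside 74.8% and 39.6% of DATG. Thinned to 2000 UMIs these were 18.9% and 39.9%, 67.1% and 53.1%, and 60.5% and 21.8%. Both KO libraries lay above both WT libraries with and without thinning, while DATG replicate 1 passed KO replicate 2, and DATG replicate 2 passed WT replicate 1, on thinning.

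The other microRNA hosts were read beside the rule. LINC00461, the host of another miR-9 copy, was at 144 and 309 CPM in WT, 692 and 546 in KO, with 496 and 242 in DATG. MIR9-1HG, which hosts a further copy, was at 20.8 and 40.2 CPM in WT, 74.0 and 54.3 in KO, beside 75.2 and 11.2 in DATG. Both were higher in both KO libraries than in both WT libraries, and the 2 DATG libraries differed. MIR124-1HG, host of the neuronal miR-124, was at 22.5 and 27.3 CPM in WT, 64.2 and 44.9 in KO, with 46.2 and 20.1 in DATG. It was the single host of the 12 in the list that passed with the 4 libraries (log2 1.18, SE 0.24, edgeR adjusted p 0.0426), while none passed with all 6. The list's median for KO against WT was 0.53, with 9 of 12 above 0, beside a median of -0.003 and 49.5% over all genes.

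Neuronal genes had the same high libraries as the HOX genes. All 18 neuron markers lay above 0 for KO against WT, with a median log2 fold change of 0.75. Over all genes tested 49.5% lay above 0, with a median of -0.003. No neuron marker passed with 6 libraries and 4 passed with 4, where 0.324% of all genes were called higher. STMN2, a microtubule regulator of growing axons, was at 77.2 and 73.6 CPM in WT, 195 and 138 in KO, beside 272 and 52.4 in DATG. DCX, of migrating young neurons, was at 55.1 and 53.3 CPM in WT, 116 and 87.4 in KO, with 173 and 68.0 in DATG. GAD2, which makes the transmitter GABA, was at 8.47 and 14.2 CPM in WT, 34.6 and 33.1 in KO, beside 47.7 and 0 in DATG. With the 4 libraries STMN2 differed by 1.18 (SE 0.19, edgeR adjusted p 0.0203), DCX by 0.95 (adjusted p 0.0444) and GAD2 by 1.67 (adjusted p 0.0269). In other human nuclei the neuron list summed to 1790 and 2186 CPM in WT, 4215 and 4163 in KO, with 3723 and 1709 in DATG. In members it summed to 1875 and 2688, 4087 and 4038, and 4663 and 1937. The part of neuronal RNA from outside these nuclei was not tested.

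Among genes higher in KO than in WT, those closest to passing with 6 libraries were RHBDL3, RGS20, PDE1A and NECTIN3-AS1. RHBDL3, a rhomboid-like membrane protein, was at 67.2 and 52.0 CPM in WT, 187 and 136 in KO, beside 112 and 83.7 in DATG (log2 1.46, SE 0.25, edgeR adjusted p 0.244). RGS20, a regulator of G protein signalling, was at 61.5 and 77.6 CPM in WT, 173 and 138 in KO, with 104 and 138 in DATG. PDE1A, a cyclic nucleotide phosphodiesterase, was at 148 and 181 CPM in WT, 319 and 317 in KO, beside 254 and 238 in DATG. NECTIN3-AS1 was at 34.7 and 51.0 CPM in WT, 101 and 112 in KO, with 61.8 and 73.6 in DATG. Antisense RNAs cannot be told apart from their partner genes here, because no source used here states whether the counting used strand. All 4 were chosen for lying higher in both KO libraries than in both WT libraries, as 17.2% of all genes did. DATG lay between WT and KO in each, apart from an overlap of RGS20 between KO and DATG. In the fit of 4 libraries RHBDL3 passed (adjusted p 0.0114), as did CSMD1, a synaptic membrane protein (1.62, SE 0.19, adjusted p 0.00656). CSMD1 was at 248 and 228 CPM in WT, 805 and 614 in KO, beside 1110 and 181 in DATG.

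The genes lower in KO that came closest to passing had smaller adjusted p-values than those. HNF4G, a nuclear receptor of gut epithelium, was at 67.6 and 56.7 CPM in WT members, 10.1 and 9.51 in KO, with 11.8 and 23.4 in DATG (KO against WT log2 -2.63, SE 0.34, edgeR adjusted p 0.205). CFTR, an epithelial chloride channel, was at 106 and 82.0 CPM in WT, 21.4 and 25.4 in KO, beside 21.4 and 35.7 in DATG. AFP, the fetal liver protein, was at 69.6 and 103 CPM in WT, 15.5 and 21.8 in KO, with 13.2 and 21.2 in DATG. NPSR1-AS1 was at 116 and 58.7 CPM in WT, 11.5 and 10.6 in KO, beside 6.73 and 10.0 in DATG. All 4 were chosen for having no overlap of WT and KO, and 23.3% of all genes were lower in both KO libraries than in both WT libraries. None passed with 6 libraries. In the fit of 4 libraries SI, the intestinal sucrase-isomaltase, passed at -5.48 (SE 0.44, edgeR adjusted p 0.00279), as did HNF4A, GATA4, NR5A2 and CPS1. That fit called 7 of 9 gut markers, 3 of 11 hepatocyte markers and 4 of 11 squamous and general epithelium markers lower. Over all genes tested in it, 1.21% were called lower. SI was at 78.1 and 37.8 CPM in WT, 1.53 and 0.881 in KO, with 0.420 and 34.6 in DATG.

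The gut list was also lower in KO than in WT in the other human nuclei, where DATG replicate 2 lay above WT replicate 2. It summed to 268 and 141 CPM in WT members, 24.2 and 25.4 in KO, beside 25.6 and 99.3 in DATG, beside 286 and 203, 30.03 and 43.8, and 43.8 and 270 CPM in the other nuclei. The hepatocyte list summed to 263 and 267, 62.4 and 73.8, and 151 and 65.8 CPM in members, beside 464 and 644, 192 and 188, and 557 and 305 CPM in the others. At least 3 gut markers were held by 19.2% and 8.91% of WT members and by 0.478% and 1.08% of KO members. The part of RNA from gut and liver cells in these differences was not tested.

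For DATG against WT, the genes nearest to passing on the higher side included ACTB and MARCKSL1. ACTB, cytoplasmic actin, was at 108 and 141 CPM in WT, 176 and 154 in KO, with 405 and 423 in DATG (DATG against WT log2 1.81, SE 0.22, edgeR adjusted p 0.206). MARCKSL1, an actin-binding protein, was at 54.7 and 58.4 CPM in WT, 97.2 and 71.5 in KO, beside 202 and 177 in DATG. On the lower side NPSR1-AS1, given above, had the same adjusted p, 0.206. PAMR1, a secreted protease-like protein, was at 42.8 and 52.6 CPM in WT, 21.8 and 23.8 in KO, beside 13.5 and 13.4 in DATG (DATG against WT log2 -1.75, edgeR adjusted p 0.295). ANXA4, a calcium-dependent membrane binding protein of epithelia, was at 94.4 and 76.9 CPM in WT, 26.9 and 32.2 in KO, with 27.7 and 32.4 in DATG (adjusted p 0.328). The genes nearest to passing for DATG against KO included the next pair. EEF1A1, a translation elongation factor, was at 301 and 280 CPM in WT, 273 and 221 in KO, with 810 and 651 in DATG. MT-ND2, encoded by mitochondrial DNA, was at 29.7 and 12.5 CPM in WT, 25.3 and 12.5 in KO, beside 131 and 152 in DATG. In ACTB, MARCKSL1, EEF1A1 and MT-ND2 both DATG libraries lay above the other 4. ACTB and MARCKSL1 were chosen for having no overlap with WT, and EEF1A1 and MT-ND2 for having none with KO. For DATG against WT 10.5% of all genes were higher in both DATG libraries than in both WT libraries and 21.5% lower, and for DATG against KO 15% and 22.2%. All 13 mitochondrially encoded genes lay above 0 for DATG against WT, with a median of 2.48, beside -0.015 over all genes. Mitochondrial RNA was 0.116% and 0.0433% of the summed UMIs of members in WT, 0.0982% and 0.0654% in KO, beside 0.533% and 0.281% in DATG. Its part in the gene differences was not tested.

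The members of the 2 DATG libraries differed from each other. DATG replicate 2 held 39.6% of members with a HOX UMI, GAD2 at 0 CPM and a neuron list of 1937 CPM, while DATG replicate 1 held 74.8%, 47.7 CPM and 4663 CPM. Low HOX and neuron levels were not particular to DATG replicate 2. The HOX sum of WT replicate 1 (130 CPM) lay below that of DATG replicate 2 (197 CPM), as did its neuron list. SMOC1 was at 319 CPM in DATG replicate 2 and at 67.2 to 114 CPM in the other 5 libraries. SOX1, a neural progenitor factor, was at 63.6 CPM there and at 12.9 to 16.2 CPM in the others, and IRX3, a factor of intermediate neural tube, at 52.4 against 4.05 to 11.2 CPM. At 182, the number of member nuclei was also the lowest in DATG replicate 2. TRPM1, a channel of melanocytes and retina, was at 22.6 and 31.4 CPM in WT, 22.4 and 53.7 in KO, with 5.04 and 0 in DATG.

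Within the members, nuclei with PAX7 and no PAX3 were compared with nuclei with PAX3 and no PAX7. There were 53, 20, 65, 51, 65 and 17 nuclei with PAX7 and no PAX3 (WT, KO and DATG, replicates 1 and 2 of each), 237, 218, 858, 347, 527 and 111 with PAX3 and no PAX7, and 164, 65, 331, 158, 86 and 54 with both. The rule accepted either gene and did not compare them, and this contrast was tested within libraries. The classes still rest on UMIs of PAX3 and PAX7, which also chose the members, so they are not independent of the rule. Of 11116 genes, edgeR called 47 (0.423%), 32 higher (0.288%) and 15 lower (0.135%) in PAX7-only nuclei. Median depths overlapped: 3415 to 7278 UMIs per library in PAX7-only nuclei and 3334 to 7442 in PAX3-only nuclei. PAX3 and PAX7 themselves were left out of the test. In the same order of libraries, 19, 3, 13, 23, 23 and 5 PAX7-only nuclei held at least 2 UMIs of PAX7. PAX3-only nuclei with at least 2 UMIs of PAX3 numbered 153, 140, 632, 230, 345 and 59. Most PAX7-only nuclei thus rested on 1 UMI, and most PAX3-only nuclei did not. With that limit of 2 UMIs, 4 libraries kept at least 10 nuclei in both classes.

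Genes of motile cilia were among those higher in PAX7-only nuclei. CFAP54, a part of the central pair of motile cilia, was at 121, 244, 57.4, 103, 185 and 121 CPM in PAX7-only nuclei of the 6 libraries and at 41.1, 54.5, 28.6, 57.6, 62.6 and 26.6 CPM in PAX3-only nuclei. It was higher in the PAX7-only nuclei of every library (log2 1.48, SE 0.17, edgeR adjusted p 0.000366). Of all genes tested, 1.67% were higher and 3.05% lower in PAX7-only nuclei of all 6 libraries. HYDIN, also of the central pair, was at 99.7 ± 46.4 against 46.1 ± 6.79 CPM (SD, n = 6; log2 1.16, adjusted p 0.00736). DNAH9, a dynein motor of outer arms, was at 70.0 ± 57.1 against 21.1 ± 10.8 CPM, higher in 5 of 6 libraries (log2 1.66, adjusted p 0.00297). CFAP61, CFAP43, SPATA17 and LRRC9 also passed, at log2 differences of 1.19, 1.28, 0.84 and 0.90. Of 7 ciliated markers tested, 3 were called higher and all 7 lay above 0. The ciliated list summed to 484 ± 277 CPM in PAX7-only and 215 ± 27.0 CPM in PAX3-only nuclei. Markers of other tissues also differed in sum: the skeletal muscle list summed to 828 ± 433 against 551 ± 133 CPM, higher in 5 of 6 libraries. All 6 muscle genes tested lay above 0, with a median of 1.01, and none was called. The choroid plexus list summed to 1572 ± 1018 against 804 ± 207 CPM, higher in 4 of 6 libraries, and none of its 9 genes tested was called. The part of these cell types in the class difference was not tested.

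The PAX7 side also held a gene of the ventral midline of the neural tube, opposite to the dorsal side where PAX7 is known. SHH, the floor plate morphogen, was at 6.99, 25.2, 27.2, 23.9, 71.5 and 0 CPM in PAX7-only nuclei and at 2.63, 13.99, 5.33, 8.13, 8.57 and 0 CPM in PAX3-only nuclei. It was higher in 5 of 6 libraries and not seen in either class of DATG replicate 2 (log2 2.09, SE 0.39, edgeR adjusted p 0.0156). NKX6-1, a ventral progenitor factor, was at 19.7 ± 21.7 against 7.49 ± 4.05 CPM and did not pass (log2 1.34, adjusted p 0.179). Of 4 ventral genes tested 2 were called higher, SHH among them, and all 4 lay above 0. The other 9 genes of the list had too few counts to be tested, FOXA2 among them, at 9.26 ± 16.6 against 4.24 ± 1.87 CPM.

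**Figure D4:**
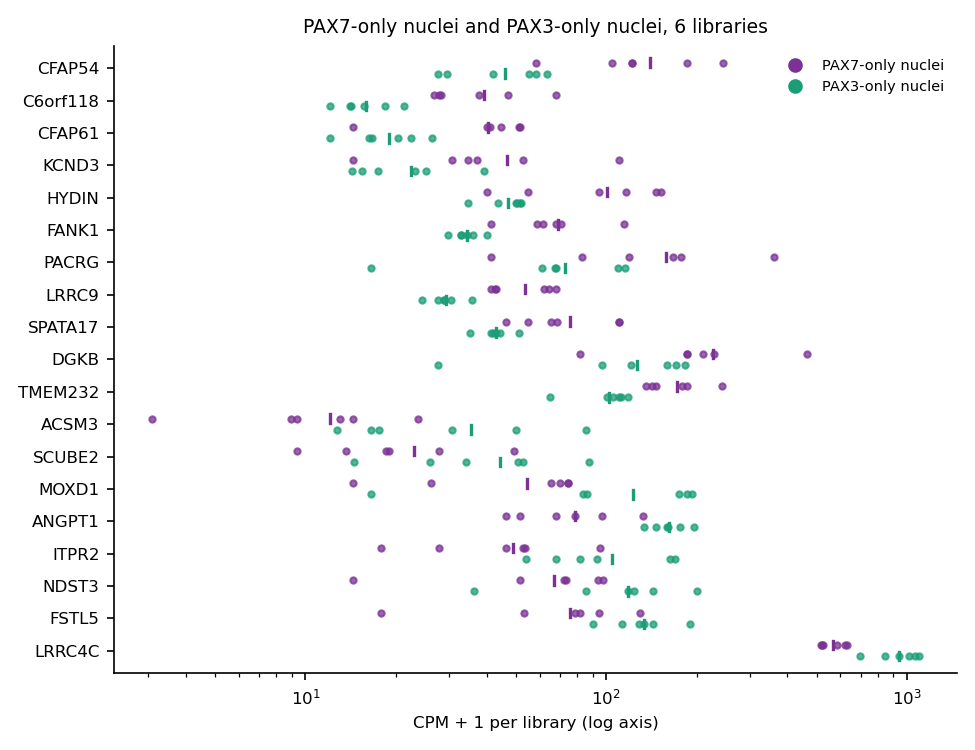
CPM + 1 (log axis) in PAX7-only (purple) and PAX3-only (green) nuclei for genes past the threshold with the same sign in all 6 libraries; points are libraries and ticks are means. Genes from CFAP54 to TMEM232 are higher in PAX7-only nuclei and genes from ACSM3 to LRRC4C are lower.

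The genes lower in PAX7-only nuclei included LRRC4C, MOXD1, ANGPT1 and ACSM3. LRRC4C, a synaptic adhesion protein, was at 565 ± 51.9 CPM in PAX7-only and 941 ± 149 CPM in PAX3-only nuclei, lower in every library (log2 -0.69, SE 0.12, edgeR adjusted p 0.0103). MOXD1, a monooxygenase-like protein of neural crest and neural tissue, was at 53.3 ± 26.8 against 122 ± 71.5 CPM (log2 -1.09, adjusted p 0.00699). ANGPT1, a ligand of the vessel receptor TIE2, was at 78.0 ± 31.9 against 161 ± 21.9 CPM, and ACSM3 had the largest difference, -1.70. No gene of the dorsal (10 tested), progenitor (18), neuron (18) or HOX (9) lists was called.

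Ciliated markers were also counted per nucleus. At least 3 of 11 ciliated markers were held by 543 members (15.8%), against 4.46% of other human nuclei. These shares are without thinning, and members were deeper, with a median of 5270 UMIs against 2844. The part of depth in this gap was not tested. Without these 543 nuclei 7 genes were called, 1 higher and 6 lower, with MOXD1 and LRRC4C among the lower ones. Called doublets left out, 28 genes passed, 24 of them among the 47. With members thinned to 1000 UMIs 6 passed and none was among the 47. The count also moved with the library: it was 13 without DATG replicate 1 and without KO replicate 2, 20 without WT replicate 2, 23 without KO replicate 1 and 31 without WT replicate 1.

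A HOX gene or OTX2 divided the members in another way. There were 138, 127, 893, 353, 457 and 64 members with a HOX UMI and no OTX2 (WT, KO and DATG, replicates 1 and 2 of each), and 60, 27, 12, 27, 23 and 19 with OTX2 and no HOX. Both were found in 88, 67, 140, 74, 50 and 8 members, and these were the deepest, with median UMIs of 7745 to 28778.5 per library against 4012.5 to 11207 for HOX alone and 4706.5 to 7912.5 for OTX2 alone. Of 10817 genes, with HOX genes and OTX2 left out, edgeR called 147 (1.36%) within libraries, 106 higher (0.98%) and 41 lower (0.379%) in HOX-positive nuclei.

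OTX2-positive nuclei had more RNA of RSPO2, ZIC1, ZIC2 and LEF1. RSPO2 was at 385, 171, 438, 37.1, 288 and 189 CPM in OTX2-positive nuclei of the 6 libraries and at 51.1, 66.5, 35.3, 25.2, 39.9 and 22.1 CPM in HOX-positive nuclei. It was lower in HOX-positive nuclei of every library, by the least in KO replicate 2 (log2 -2.45, SE 0.38, edgeR adjusted p 0.0193). ZIC1 was at 173 ± 45.3 CPM in HOX-positive and 335 ± 107 CPM in OTX2-positive nuclei (SD, n = 6; log2 -0.94, SE 0.18, adjusted p 0.0103). ZIC2 was at 44.8 ± 28.9 against 84.2 ± 44.3 CPM (log2 -0.91, adjusted p 0.0187), and LEF1 at 108 ± 20.3 against 227 ± 66.5 CPM (log2 -1.01, adjusted p 0.000809). Both were lower in all 6 libraries. LMX1A was lower in 5 of 6 libraries, at 31.6 ± 10.6 against 96.8 ± 56.4 CPM, but did not pass (log2 -1.35, adjusted p 0.207). Of 9 dorsal genes tested 2 were called lower, and all 9 lay below 0, with a median of -0.78. The roof plate and dorsal signal list was mixed: 3 of 21 genes were called lower and 1 higher, and 9 lay above 0.

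The choroid plexus list, which makes up the epithelium that secretes cerebrospinal fluid, summed to 543 ± 194 CPM in HOX-positive and 2212 ± 1034 CPM in OTX2-positive nuclei. OTX2 is a member of that list and defined the class. Of 7 other choroid genes tested, 1 was called lower, RSPO2, and 1 lay above 0. TRPM3, a cation channel abundant in choroid plexus, was at 362 ± 149 against 1260 ± 439 CPM and lower in all 6 libraries, but did not pass (log2 -1.79, SE 0.42, edgeR adjusted p 0.156). OTX1, the relative of OTX2, was at 4.90 ± 3.05 against 33.5 ± 26.9 CPM and passed (log2 -2.57, adjusted p 0.0134). OTX2-AS1 passed at -2.82, but as an antisense RNA beside OTX2 it cannot be told apart from the gene that set the class. DAB1, an adaptor of reelin signalling in neural migration, was at 309 ± 63.2 against 685 ± 44.7 CPM (log2 -1.15, adjusted p 5.06e-05). Its lowest OTX2-positive library, at 634 CPM, lay above its highest HOX-positive library, at 410 CPM.

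**Figure D5:**
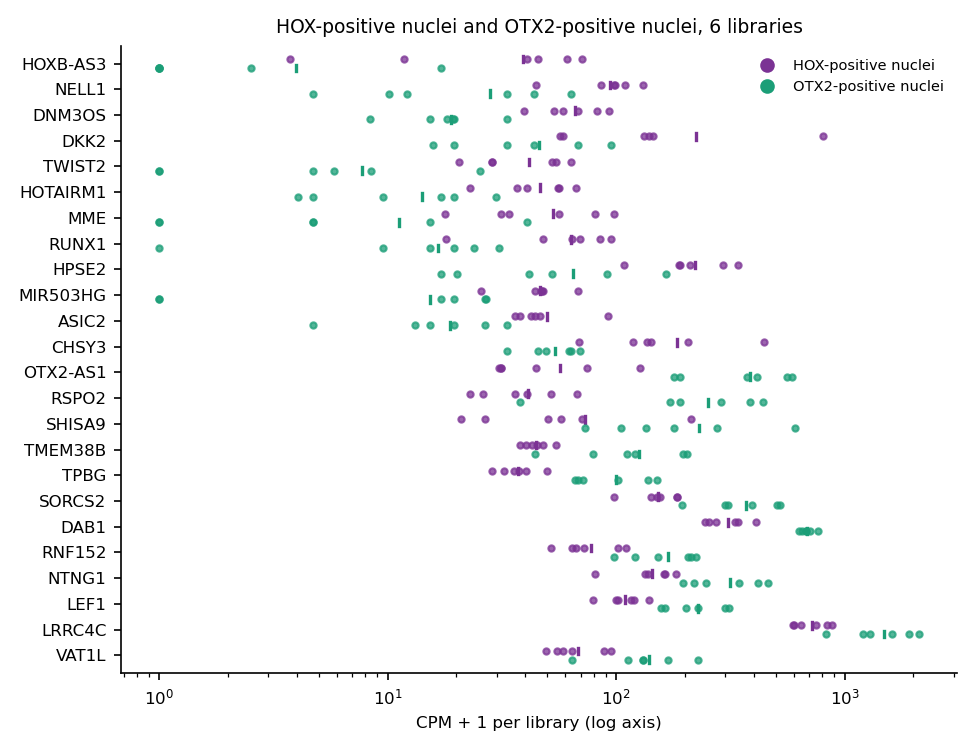
CPM + 1 (log axis) in HOX-positive (purple) and OTX2-positive (green) nuclei for the genes past the threshold with the same sign in all 6 libraries; points are libraries and ticks are means. Genes from HOXB-AS3 to CHSY3 are higher in HOX-positive nuclei and genes from OTX2-AS1 to VAT1L are lower.

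HOX-positive nuclei had more RNA of connective tissue genes. Of 14 mesenchyme markers 7 were called higher, and all 14 lay above 0, with a median of 0.85 beside 0.007 over all genes tested. Of those, 4.36% were higher in HOX-positive nuclei of all 6 libraries and 2.01% lower. COL5A1, a fibrillar collagen chain, was at 221 ± 136 against 85.3 ± 43.8 CPM (log2 1.31, SE 0.17, edgeR adjusted p 0.000259). COL1A2 was at 585 ± 267 against 323 ± 183 CPM (log2 0.91, adjusted p 0.00123), and TWIST2, a mesenchymal transcription factor, at 40.5 ± 17.6 against 6.72 ± 9.11 CPM (log2 2.01, adjusted p 0.00645). DKK2, a modulator of WNT signalling, was at 222 ± 288 against 45.0 ± 30.6 CPM, with 805 CPM in DATG replicate 2. BMP5, a dorsal and mesenchymal signal, was at 89.97 ± 23.0 against 40.4 ± 28.2 CPM (log2 1.07, adjusted p 0.0187). The mesenchyme list summed to 2645 ± 1085 against 1402 ± 597 CPM and was higher in 6 of 6 libraries. Its part in the other differences was not tested.

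HOXB-AS3 (log2 4.49, edgeR adjusted p 0.000259) and HOTAIRM1 (1.93, adjusted p 0.00612), RNAs transcribed within the HOX clusters, also passed. They overlap or neighbour genes that set the class. NELL1, a secreted protein of neural and skeletal tissue, was at 93.5 ± 28.8 against 27.0 ± 23.0 CPM (log2 2.06, adjusted p 0.00831), and CHSY3, a chondroitin sulphate synthase, at 185 ± 133 against 52.9 ± 13.5 CPM (log2 1.66, adjusted p 0.000109). The OTX2-positive class held 12 nuclei in KO replicate 1. The count of 147 was 69 without WT replicate 1, 92 without DATG replicate 1 and 26 with members thinned to 1000 UMIs, 9 of which were among the 147.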

How the data were processed

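Single-nucleus RNA was measured in 6 libraries (WT, KO and DATG, 2 each, grouped by sample title). The authors deposited raw UMI counts per gene and barcode, and the submitters' processing notes name Cell Ranger 8.0.1 (8.0.0 per the file headers). Builds named are GRCh38 and GRCm38, although mouse features carry the prefix GRCm39. No source used here gives the intron or strand settings. Human nuclei had at least 500 human UMIs, 300 genes and 90% of UMIs on human genes. Doublets (scrublet in scanpy 1.11.5, 0.8% per 1000 nuclei) were marked, and left out only as an alternative.

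UMIs were summed over member nuclei per library, or per library and class with library as block, and tested with edgeR 4.0.16 (robust quasi-likelihood F test, TMM, filterByExpr, R 4.3.3), with Benjamini-Hochberg adjusted p under 0.05 over all genes. CPM is not TMM-scaled (factors 0.968 to 1.04). Classes needed 10 nuclei per library. Shares were tested by exact permutation in scipy 1.17.1, and intervals are exact (95%), covering counting error only. Alternatives included DESeq2 1.42.0, other filters, thinning, and leaving out libraries. The tests were also run on simulated data, with 100 genes altered 2-fold and 100 altered 4-fold. For KO against WT with 6 libraries, 10 and 81 of these were recovered, with 11 false calls in all. For PAX7-only against PAX3-only nuclei 84 and 99 were recovered, with 14 false calls. For HOX-positive against OTX2-positive nuclei 59 and 96 were recovered, with 13 false calls. Replicate numbers were not used to pair libraries in the main test. Deviations of same-numbered libraries from their group means correlated at -0.071 (KO and WT), -0.264 (DATG and WT) and 0.299 (DATG and KO). With 2 libraries per group these values cannot tell whether the numbers pair libraries.

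The members and gene lists were chosen with earlier results of these data known. Named genes were the largest changes past the threshold with at least 20 CPM and no overlap of groups (conditions, up to 10 per direction, filled to 4 by unadjusted p) or 1 sign in all libraries (classes, up to 12), without clone names, plus listed genes. SHH, DNAH9, CFAP43, OTX1, SMOC1 and the genes singled out in DATG replicate 2 were named after their values were seen. Some genes are not reported here.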

Additional observations from a re-analysis of the deposited data

Results flagged for a closer look

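The class differences were compared between groups with an interaction term in edgeR. For PAX7-only against PAX3-only nuclei, 1 gene differed between KO and WT (ZNF804B), 3 between DATG and WT (ARHGEF28, SAMD3 and SOX6), and 3 between DATG and KO (THSD7B, SAMD3 and PAX2), of 11116 tested. For HOX-positive against OTX2-positive nuclei, 54 genes differed between KO and WT, 20 higher and 34 lower, and 26 of them encode ribosomal proteins. The OTX2-positive class of KO replicate 1 held 12 nuclei. Between DATG and WT 1 gene differed (LINC01956), and between DATG and KO 15 did, 8 of them ribosomal. Among the genes named above, TRPM3 was in this last set: its class difference was more negative in DATG than in KO by 2.11 on the log2 scale, an interaction of -2.11 (SE 0.37, edgeR adjusted p 0.0202).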

How the results depend on the processing

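Counts of genes past the threshold were 0 in each comparison of groups. They moved to 109 (KO against WT), 99 (DATG against WT) and 46 (DATG against KO) with DESeq2, to 678, 468 and 377 with no filter on low counts, and to 298 for KO against WT with only its 4 libraries. Leaving out 1 library gave 0 to 345, 0 to 428 and 0 to 1022. With a replicate block the 3 counts were 0, 0 and 0, and the pairing changed no call.

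The 47 genes of PAX7-only against PAX3-only nuclei became 236 with no filter, 104 with at least 10 UMIs in at least 2 sums, 28 without called doublets, 6 thinned to 1000 UMIs, 30 without members above 20000 UMIs, 7 without nuclei of 3 ciliated markers, 0 with no library block (312 at an unadjusted p under 0.05) and 13 to 70 without 1 library. DGKB reversed to -0.78 when thinned to 1000 UMIs. The 147 genes of HOX-positive against OTX2-positive nuclei became 434 with no filter, 470 with at least 10 UMIs, 26 thinned to 1000 UMIs, 27 with no library block and 69 to 203 without 1 library.

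The log2 ratio of shares lay at 0.25 to 1.97 (KO against WT) and -1.70 to -0.70 (DATG against KO) without 1 library. DATG against WT, at -0.31, lay at -0.93 to 0.80 and reversed to 0.11 thinned to 1000 UMIs, 0.075 thinned to 2000 UMIs, 0.80 without WT replicate 1 and 0.071 without DATG replicate 2. The cause was not tested. Limits on UMIs above 20000 and on ciliated nuclei, and thinning of gene tests to 2000 UMIs, were chosen after seeing the data.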
